A study of Mus musculus with 16 samples.

Results

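The first hour of serum was compared with quiescence in mouse 3T9 fibroblasts, immortalised cells of embryonic origin. The comparison used 4 of the 16 small RNA libraries analysed here, namely 2 libraries of cells given serum for 1 h and 2 libraries of cells at 0 h, chosen by the time in their labels. All cells had first been deprived of serum for 72 h, and the 1 h cells then received complete medium with 10% fetal bovine serum. The other 12 libraries, 2 at each of 2, 4, 6, 8, 10 and 12 h, were used to estimate the spread between replicates and to show where a 1 h level stood in the course. No group with a change of medium but no serum was analysed here, so serum and fresh medium cannot be told apart, and 1 cell line was studied. The series' design text describes the replicates as independent biological experiments. Replicate 1 and replicate 2 were sequenced in different runs, so each run gave its own 1 h to 0 h comparison.

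A miRNA gene is transcribed as a long precursor from which a short hairpin is cut, and trimming of the hairpin by Dicer leaves a duplex of its 5p and 3p arms. One arm is usually kept by an Argonaute protein and represses messenger RNAs that match its seed, the bases near its 5′ end, while the other arm is usually degraded faster and is sequenced less often. Serum brings growth factors that switch on immediate-early genes in resting fibroblasts within minutes, and mature miRNAs are known for slow turnover, so newly made and slowly decaying molecules are mixed in a total count. In what follows the arm with fewer reads over the 16 libraries is called the minor arm and the other the major arm.

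The sequences below are those of the miRNAs whose levels or end forms the results turn on, each with the other arm of its hairpin where that arm is compared with it. They were taken from RefSeq (GRCm38), read 5′ to 3′, and the seed (bases 2 to 8) is in capitals.
miR-128-1-5p: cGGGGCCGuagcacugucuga
miR-128-3p: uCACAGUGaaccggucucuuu
miR-27a-5p: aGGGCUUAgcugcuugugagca
miR-27a-3p: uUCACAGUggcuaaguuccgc
miR-26a-2-3p: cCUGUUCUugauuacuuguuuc
miR-26a-5p: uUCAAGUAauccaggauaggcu
miR-345-5p: gCUGACCCcuaguccagugcuu
miR-1843a-3p: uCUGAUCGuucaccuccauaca
miR-210-5p: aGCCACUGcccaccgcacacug
miR-210-3p: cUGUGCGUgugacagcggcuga
miR-21a-3p: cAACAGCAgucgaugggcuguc
The seed of miR-128-1-5p was shared with miR-128-2-5p, which had too few reads to be tested. The seed of miR-26a-2-3p was shared with miR-26b-3p and miR-6932-3p, of which miR-26b-3p was tested. No other miRNA of the table with a RefSeq sequence had the seed of miR-27a-5p, miR-345-5p, miR-1843a-3p, miR-210-5p or miR-21a-3p. The hairpins of the clearest higher minor arms are printed whole to show where each arm lies, with both arms in capitals.
Mir128-1: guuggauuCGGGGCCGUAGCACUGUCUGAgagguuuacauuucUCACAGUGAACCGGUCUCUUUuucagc
Mir27a: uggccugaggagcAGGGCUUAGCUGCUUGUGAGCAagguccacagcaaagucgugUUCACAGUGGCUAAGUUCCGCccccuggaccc
In both hairpins the 5p arm, which lies nearer the 5′ end, is the minor arm.

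The 4 libraries held 6378021 to 7280548 miRNA reads, and 753 to 789 mature miRNAs were detected in each. A count of 0 allows up to 0.403 to 0.439 CPM, the usual depth-scaled count (here on scaled library totals), with 3 counts as that limit. Of 1167 mature miRNAs in the table, 449 passed the filter on low counts and 718 did not, and the tested miRNAs held 99.986% to 99.989% of each library's reads. The libraries carried fibroblast miRNAs: all 12 fibroblast and mesenchymal marker miRNAs were tested and summed to 323756 to 348847 CPM. Blood markers summed to 1.08 to 2.34 CPM and pluripotent cell markers to 0.280 to 0.812 CPM. Neural markers summed to 10.1 to 12.9 CPM, epithelial markers to 102 to 127 CPM, mostly miR-205-5p, and liver and gut markers to 732 to 776 CPM, mostly miR-192-5p. Fewer cells of a type and less RNA per cell cannot be told apart in such bulk samples. Each time carried the same sequencing index in both runs, so index and time cannot be told apart either. Counts of the replicates differed well beyond counting noise, with a chi-square of 64.0 per degree of freedom at 0 h and 62.1 at 1 h.

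Few mature miRNAs were called as changed within the first hour of serum. miR-128-1-5p rose and miR-26a-2-3p fell, and these 2 of the 449 tested miRNAs (0.445%) were the ones past an adjusted p of 0.05 in edgeR's quasi-likelihood test, 1 (0.223%) in each direction. miR-27a-5p was higher by as much as miR-128-1-5p but had an adjusted p of 0.0585 in that test. Each of these is the minor arm of its hairpin. With the replicate number as a block in the same test, 5 miRNAs (1.11%) were called. The adjusted p of miR-27a-5p was then 6.49e-05. Without the block there were 15 miRNAs (3.34%) at an unadjusted p under 0.05, of which 9 (2%) were higher and 6 (1.34%) lower. The median log2 change of all tested miRNAs was -0.01, with 217 above 0 and 232 below.

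miR-128-1-5p comes from Mir128-1, which lies in an intron of R3hdm1 at chr1:128202361-128202430 on the plus strand (GRCm38, GENCODE annotation). It had 47 reads at 0 h and 131 at 1 h in replicate 1, and 51 and 123 reads in replicate 2. As CPM these counts were 6.57 and 17.6 in replicate 1 and 6.90 and 18.02 in replicate 2. Both 1 h libraries were high and both 0 h libraries low, with replicates far closer to each other than to the other time. The 1 h to 0 h ratio was 2.68 in the run of replicate 1 (95% interval 1.91 to 3.82) and 2.61 in the run of replicate 2 (1.87 to 3.69). These intervals are exact and cover the counting error of 2 libraries only. The fitted log2 change was 1.40 ± 0.23 (SE), with an edgeR adjusted p of 0.0134. The call was lost when any of the 4 libraries was left out, although the log2 change stayed between 1.40 and 1.44 (adjusted p = 0.0689 to 0.197).

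The rise of miR-128-1-5p stood out from the rest of the course. Both 1 h libraries were above all the other 14, whose highest was 10.8 CPM and lowest 4.98 CPM. At 2 h it was at 6.95 CPM in replicate 1 and 4.98 CPM in replicate 2, and from 4 h on the libraries lay between 7.12 and 10.8 CPM, above both 0 h libraries. Its reads were mainly of 2 kinds, those of reference length and those with extra bases at the 3′ end. Reference-length reads were 2.74 times as abundant at 1 h in replicate 1 and 2.96 times in replicate 2, and 3′ extended reads 2.64 and 2.59 times. The ratio was therefore alike in both kinds of read. With reference-length reads alone, from 15 to 60 reads a library, the log2 change was 1.46 but the adjusted p was 0.203 (edgeR quasi-likelihood test).

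miR-26a-2-3p is the minor arm of Mir26a-2, which lies within an untranslated exon part of Ctdsp2, a phosphatase gene, at chr10:126995530-126995613 on the plus strand. Its reads were 156 at 0 h and 72 at 1 h in replicate 1, and 176 and 75 in replicate 2. The CPM values were 21.8 and 9.68 in replicate 1 and 23.8 and 11.0 in replicate 2, so the 1 h libraries lay below both 0 h libraries. The ratio was 0.443 in replicate 1 (95% interval 0.331 to 0.590) and 0.461 in replicate 2 (0.347 to 0.608). Its fitted log2 change was -1.14 ± 0.21 (SE), with an edgeR adjusted p of 0.0224. The call was lost without any 1 of the 4 libraries (log2 change -1.22 to -1.03; adjusted p = 0.173 to 0.501), and also without 4 h replicate 1 (-1.11; adjusted p = 0.0628) or 6 h replicate 2 (-1.11; adjusted p = 0.0617). From 2 h to 12 h the libraries lay lower still, between 2.86 and 8.15 CPM with a median of 4.97. The 1 h values were thus an intermediate level in the course, between those of 0 h and of all later times. Reads of reference length, the main form, had ratios of 0.394 and 0.450. miR-26b-3p, which has the same seed, was at 19.9 and 19.6 CPM in replicate 1 and at 26.9 and 30.2 CPM in replicate 2.

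miR-27a-5p is the minor arm of Mir27a, a member of the miR-23a cluster, at chr8:84208672-84208758 on the plus strand, where the annotation gives no overlapping host gene. The miR-27 family is known as a brake on fat cell differentiation, through the major arm. miR-27a-5p had 282 reads at 0 h and 721 at 1 h in replicate 1, and 342 and 899 in replicate 2. In CPM it was at 39.4 and 96.9 in replicate 1 and at 46.3 and 131.7 in replicate 2. Both 1 h libraries lay above both 0 h libraries, and replicate 2 was the higher at each time. The ratios were 2.46 (95% interval 2.14 to 2.83) and 2.85 (2.51 to 3.23). The fitted log2 change was 1.41 ± 0.30 (SE), with an adjusted p of 0.0585 in edgeR's quasi-likelihood test. With the replicate number as a block the adjusted p was 6.49e-05, and with the 0 h and 1 h libraries alone it was 0.00891. At a mean of at least 10 CPM it was 0.273, and without any 1 of the 4 libraries it was 0.129 to 0.998 (log2 change 1.20 to 1.64). The 12 libraries of 2 h to 12 h lay between 56.0 and 120.4 CPM, above both 0 h libraries.

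**Figure D1:**
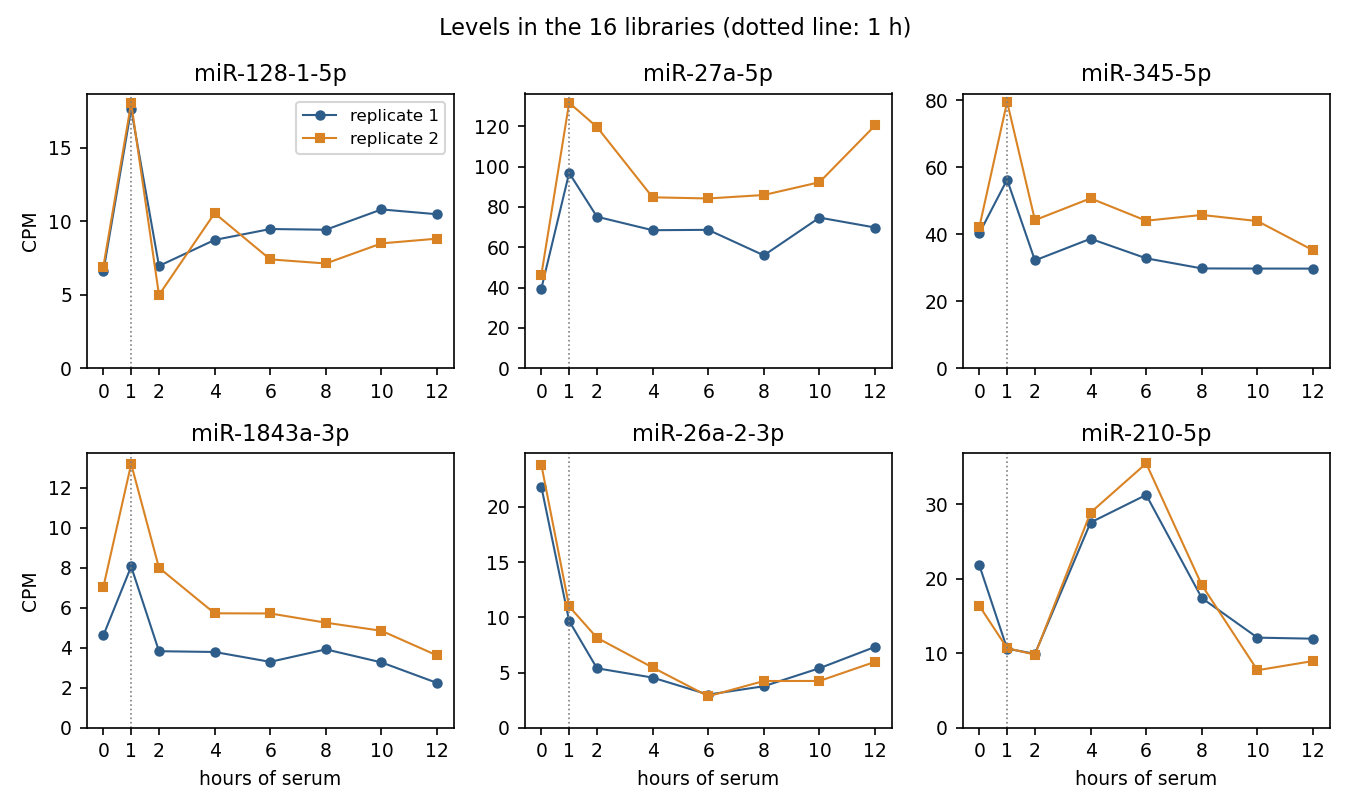
Levels of 6 miRNAs in all 16 libraries, as CPM from 0 on the vertical axis against hours of serum. Circles are replicate 1 and squares replicate 2. At 1 h miR-128-1-5p, miR-345-5p, miR-1843a-3p and miR-27a-5p had their highest values of the course in each replicate. Of these, miR-27a-5p stayed above both 0 h libraries at all later times. miR-26a-2-3p went on to lower values. miR-210-5p was low at 1 and 2 h, high at 4 and 6 h, and low again at 10 and 12 h.

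Replicate numbers share a sequencing run, and with the run as a block 5 of 449 miRNAs (1.11%) were called. The additional ones were miR-27a-5p, miR-345-5p and miR-1843a-3p, all higher at 1 h. miR-345-5p, the major arm of Mir345 at chr12:108836973-108837068 (plus strand, in an exon of a Slc25a47 transcript), had 288 and 419 reads in replicate 1 and 311 and 543 reads in replicate 2. Its CPM values were 40.3 at 0 h and 56.3 at 1 h in replicate 1, and 42.1 and 79.5 in replicate 2. The groups did not overlap, but the 1 h libraries differed from each other by more than the 0 h libraries did. Its ratios were 1.40 (95% interval 1.20 to 1.63) and 1.89 (1.64 to 2.18), and its log2 change was 0.72 ± 0.27 (SE), with edgeR adjusted p-values of 0.994 without and 0.0228 with the block. Without the block, leaving out 1 h replicate 2 gave a log2 change of 0.47 and leaving out 1 h replicate 1 one of 0.97. Trimmed forms made up 90.6% to 94.5% of its reads, and their ratios were 1.42 and 1.91. Its other arm, miR-345-3p, went from 16.1 to 16.9 CPM in replicate 1 and from 20.03 to 30.6 CPM in replicate 2.

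miR-1843a-3p is a minor arm. Its hairpin, at chr12:80391613-80391677 on the minus strand, lies in an intron of Dcaf5 and overlaps an exon of Scarna3b, a small Cajal body RNA. Reads of that RNA and of the miRNA cannot be told apart by position where they overlap. It had 33 reads at 0 h and 60 at 1 h in replicate 1 and 52 and 90 reads in replicate 2, or 4.62, 8.06, 7.04 and 13.2 CPM in that order. Within each replicate the 1 h library was higher, while the replicates differed from each other by nearly as much. The log2 change was 0.86 ± 0.38 (SE), with edgeR adjusted p-values of 0.994 without and 0.0430 with the block. Without the block, leaving out 1 h replicate 2 gave a log2 change of 0.49 and leaving out 0 h replicate 2 one of 1.20. Its end forms differed between the runs: reference-length reads had ratios of 2.64 and 1.26, and trimmed reads of 1.13 and 2.81. The major arm, miR-1843a-5p, was at 53.3 and 55.8 CPM in replicate 1 and at 49.1 and 48.6 CPM in replicate 2.

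The other miRNAs with an unadjusted p under 0.05 did not pass adjustment with or without the block. miR-210-5p, the minor arm of the hypoxia-induced Mir210, had 156 reads at 0 h and 79 at 1 h in replicate 1 and 121 and 73 in replicate 2. In CPM it was at 21.8 and 10.6 and at 16.4 and 10.7, so the 1 h libraries agreed closely and lay below both 0 h libraries. Its log2 change was -0.84 ± 0.23 (SE), with edgeR adjusted p-values of 0.275 without and 0.0803 with the block. miR-185-5p, whose hairpin lies within Tango2, was at 23.1 and 15.5 CPM in replicate 1 and at 28.2 and 15.7 CPM in replicate 2. miR-326-3p, whose hairpin lies within Arrb1, had 143 and 85 reads in replicate 1 and 208 and 142 in replicate 2; its 1 h library of replicate 2, at 20.8 CPM, overlapped the 0 h group. miR-467d-5p, of a large rodent family of similar miRNAs, was at 50.2 and 35.6 CPM and at 44.7 and 36.0 CPM, the 1 h libraries being the lowest of all 16. miR-7653-3p had 16, 8, 11 and 3 reads in the order 0 h and 1 h of replicate 1, then of replicate 2, too few for either run to leave a ratio of 1.

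Another 4 higher miRNAs rested on few reads. miR-125b-1-3p, also higher at an unadjusted p under 0.05, had many more reads and is given under the other observations. let-7a-2-3p, of the let-7 family, which restrains growth genes, had 11 and 25 reads in replicate 1 and 16 and 28 in replicate 2. Its log2 change was 1.00 ± 0.32 (SE), with an edgeR adjusted p of 0.691. let-7f-1-3p had 33 and 48 reads in replicate 1 and 34 and 50 in replicate 2, while its abundant major arm let-7f-5p had a log2 change of 0.00 ± 0.13 (SE). miR-23a-5p, whose hairpin neighbours Mir27a, had 11 and 18 reads in replicate 1 and 9 and 17 in replicate 2. Its direction was that of miR-27a-5p, but neither run's interval left a ratio of 1. miR-34b-3p, of a p53-induced family, was at 4.90 and 5.51 CPM in replicate 1 and at 3.52 and 7.76 CPM in replicate 2, so most of its difference came from replicate 2.

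The major arms of the hairpins whose minor arms moved most stayed near their 0 h levels, except that of Mir128-1. miR-27a-3p was at 2035 and 1899 CPM in replicate 1 and at 2051 and 2028 CPM in replicate 2 (log2 change -0.06 ± 0.14, SE). miR-26a-5p was at 55451 and 51513 CPM in replicate 1 and at 48893 and 45978 CPM in replicate 2 (-0.10 ± 0.15). miR-210-3p was at 169.7 and 162.5 CPM and at 126.0 and 138.1 CPM (0.02 ± 0.17), so its runs went in different directions. miR-128-3p was at 225 and 281 CPM in replicate 1 and at 265 and 352 CPM in replicate 2, with ratios of 1.25 (95% interval 1.17 to 1.33) and 1.33 (1.25 to 1.41). Its log2 change was 0.37 ± 0.23 (SE), and it did not pass edgeR's test (adjusted p = 0.994). This arm is identical in Mir128-1 and Mir128-2, and miR-26a-5p in Mir26a-1 and Mir26a-2, so these major arms sum reads of 2 hairpins each.

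A ratio of minor to major arm within a library does not depend on how libraries are scaled. This ratio was tested for 131 hairpins with at least 10 reads of each arm on average, and none passed an adjusted p of 0.05 (0%) in limma's moderated test, with 9 (6.87%) at an unadjusted p under 0.05. With the run as a block Mir27a, Mir26a-2 and Mir128-1 passed. For Mir27a the minor arm made up 1.90% of both arms' reads at 0 h and 4.85% at 1 h in replicate 1, and 2.21% and 6.10% in replicate 2. The log2 change of its arm ratio was 1.46 ± 0.40 (SE; adjusted p = 0.190, and 0.00219 with the block, limma). For Mir128-1 the shares were 2.84% and 5.90% in replicate 1 and 2.53% and 4.87% in replicate 2 (adjusted p = 0.360, and 0.0424 with the block, limma). Both hairpins thus had a larger share of minor arm in each 1 h library than in either 0 h library.

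Mir26a-2 and Mir210 showed the opposite order. The share of miR-26a-2-3p was 0.0393% at 0 h and 0.0188% at 1 h in replicate 1, and 0.0487% and 0.0239% in replicate 2, where the denominator includes miR-26a-5p of both its hairpins. Its arm ratio had an adjusted p of 0.190, and of 0.0424 with the block (limma). miR-210-5p took 11.4% and 6.13% of both arms in replicate 1 and 11.5% and 7.19% in replicate 2. The log2 change of its arm ratio was -0.86 ± 0.24 (SE; adjusted p = 0.190, and 0.0893 with the block, limma). The 0 h shares of Mir210 were nearly equal in the replicates, whereas its level in CPM differed between them.

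**Figure D2:**
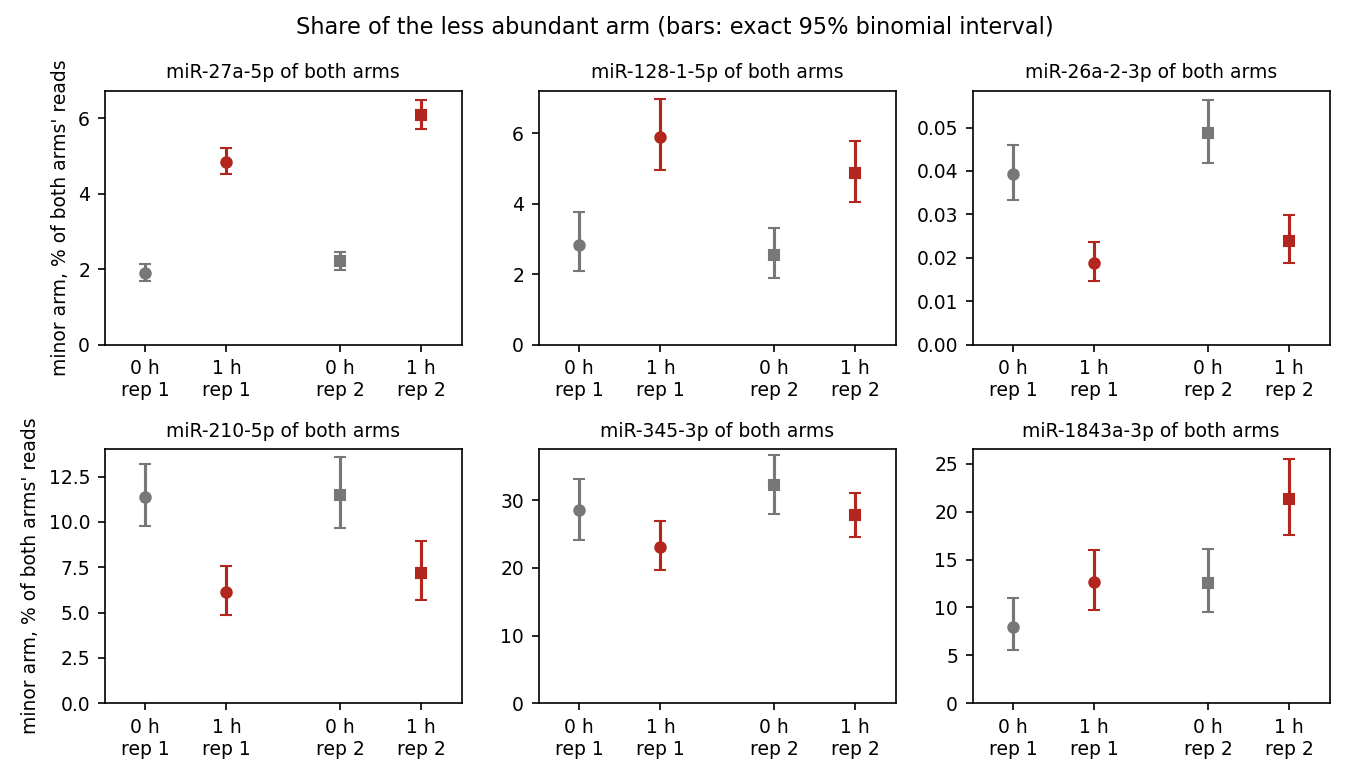
Share of the minor arm among both arms' reads, in percent from 0 on the vertical axis, for 6 hairpins in each of the 4 libraries (grey 0 h, red 1 h, circles replicate 1, squares replicate 2). Bars are exact 95% binomial intervals for counting error, and for Mir27a, Mir128-1, Mir26a-2 and Mir210 the intervals of 0 h and 1 h are apart in each run.

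Over all hairpins the minor arms showed no common direction. The 131 minor arms had a median log2 change of 0.02 and the 125 major arms tested one of -0.01. Minor arms accounted for 6 higher and 2 lower miRNAs at an unadjusted p under 0.05, and major arms for 2 higher and 2 lower. This count covers the hairpins with both arms matched and measured, which leaves out let-7a-2-3p, miR-326-3p and miR-7653-3p. A size of at least 0.5 on the log2 scale was reached by 12 minor arms (9.16%) and 4 major arms (3.2%). Minor arms were also measured with fewer reads, at a median of 18.5 CPM against 458 CPM, and their median SE was 0.25 against 0.18. The part of read depth in the difference between the 2 kinds of arm was not tested.

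End forms were compared within each miRNA. The mix of end forms was called as changed for 1 miRNA in the first hour. miR-21a-3p, the minor arm of the growth-associated Mir21a in an untranslated exon part of Vmp1 (chr11:86584067-86584158, minus strand), had a larger share of reference-length reads at 1 h. It was the only one of 277 miRNAs tested (0.361%) whose ratio of other to reference-length reads passed, with 11 (3.97%) at an unadjusted p under 0.05 (limma). Its reference-length reads numbered 167 at 0 h and 428 at 1 h in replicate 1, and 217 and 429 in replicate 2. These gave ratios of 2.46 (95% interval 2.05 to 2.96) and 2.14 (1.81 to 2.53). Trimmed reads, its main form, numbered 1864 and 2057 in replicate 1 and 1811 and 1858 in replicate 2, with ratios of 1.06 and 1.11. Reads with 3′ extension had ratios of 1.26 and 1.29. In each run the ratios of these 3 forms were above 1, and that of the reference-length form was the largest. The 95% interval of the trimmed form included 1 in replicate 1 (0.995 to 1.13) but not in replicate 2 (1.04 to 1.19).

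Reads outside the reference length made up 92.5% of miR-21a-3p at 0 h and 84.3% at 1 h in replicate 1, and 90.2% and 82.8% in replicate 2. The log2 ratio of other to reference-length reads changed by -1.06 ± 0.16 (SE; adjusted p = 0.0232, limma). This ratio was no longer called without 0 h replicate 1 (-0.85), 1 h replicate 1 (-1.13) or 1 h replicate 2 (-0.98). All forms together gave a log2 change of 0.27 ± 0.38 (SE), with an edgeR adjusted p of 0.994, so the summed level was not called. The level of its reference-length reads alone was not called in edgeR's test either, so the call concerns the mix of forms only. The reference-length share was 7.54% and 9.85% at 0 h, 15.7% and 17.2% at 1 h, and between 9.52% and 18.7% at later times, with a median of 11.4%. The highest share of the course was at 2 h in replicate 1, and at 8 to 12 h the shares were 9.52% to 10.5%.

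**Figure D3:**
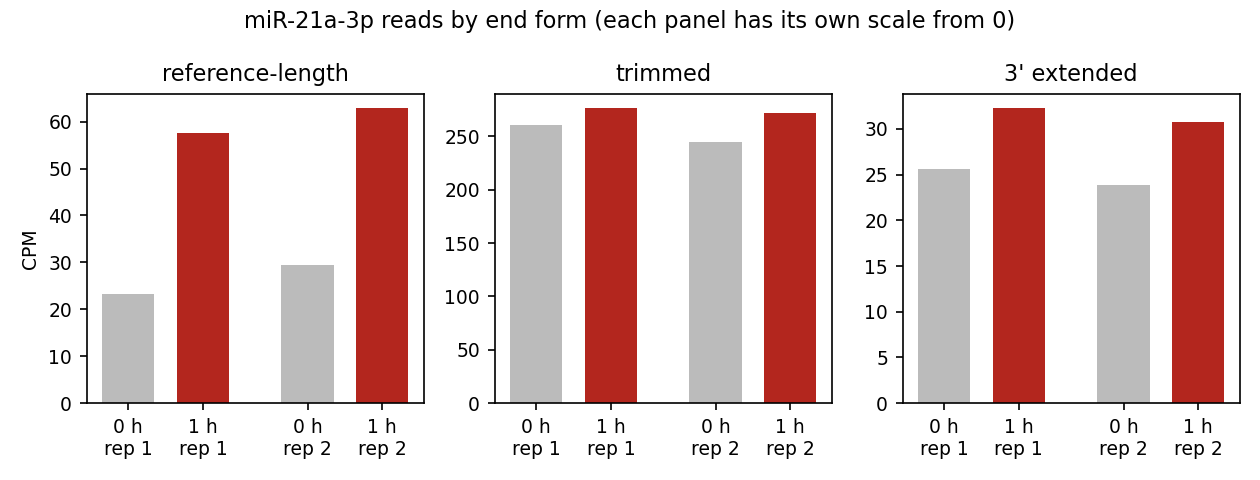
CPM of miR-21a-3p reads by end form in the 4 libraries, with a scale from 0 in each panel (grey 0 h, red 1 h). Reference-length reads were 23.4 and 29.4 CPM at 0 h and 57.5 and 62.8 CPM at 1 h, while trimmed reads lay between 245 and 276 CPM.

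The next miRNAs by p in the test of end forms did not pass. miR-92a-1-5p, of the Myc-induced miR-17-92 cluster, had 9 and 13 reads outside the reference length in replicate 1 and 4 and 20 in replicate 2 (adjusted p = 0.722, limma). For miR-744-3p the share outside the reference length was 54.0% and 63.2% in replicate 1 and 53.6% and 65.0% in replicate 2 (adjusted p = 0.787). With the run as a block miR-27b-5p, the minor arm of Mir27b, also passed (adjusted p = 0.0359, limma). Its share outside the reference length was 23.8% and 27.8% in replicate 1 and 26.3% and 33.7% in replicate 2.

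Run by run, many more miRNAs differed by more than counting error than passed the test between replicates. The 95% counting interval of the 1 h to 0 h ratio left 1 for 127 miRNAs in the run of replicate 1 and for 159 in the run of replicate 2. It did so in both runs and the same direction for 68 miRNAs (15.1%), of which 32 (7.13%) were higher and 36 (8.02%) lower. For 15 miRNAs (3.34%) the runs left 1 in opposite directions, for 120 only 1 run did, and for 246 neither. miR-143-3p, a smooth muscle and fibroblast miRNA and one of the most abundant, was among the opposite ones, with 125099 and 142286 CPM in replicate 1 and 133324 and 126180 CPM in replicate 2. Its ratios were 1.14 and 0.946, both with intervals far narrower than their distance from 1. Counting limits alone therefore did not describe the spread between these experiments.

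**Figure D4:**
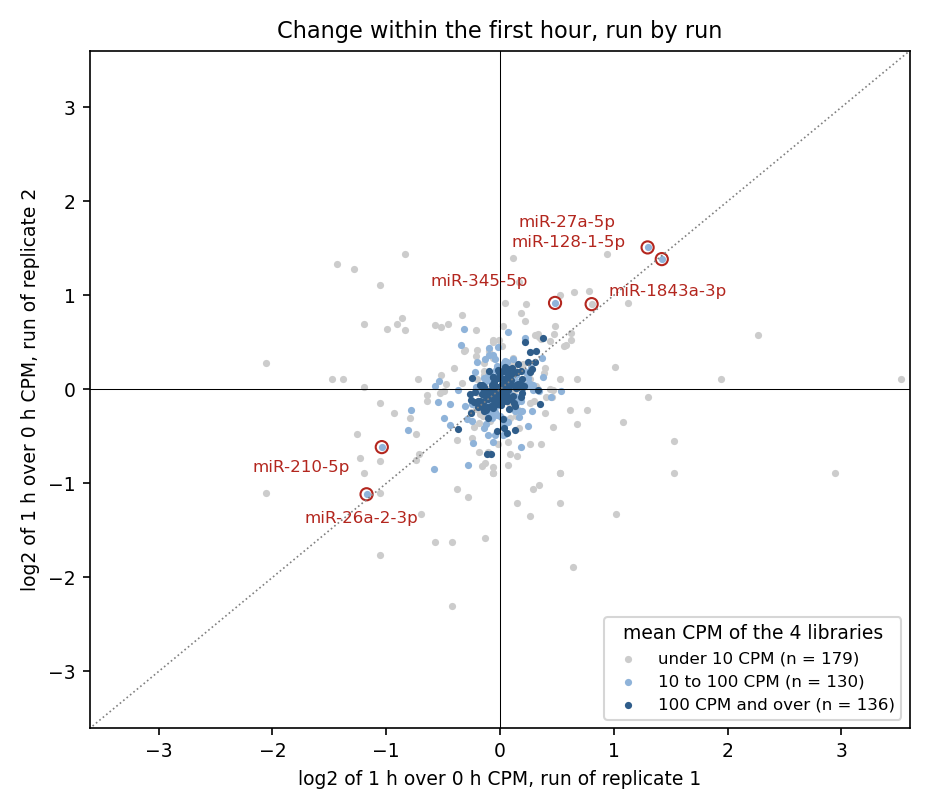
Log2 ratio of 1 h to 0 h CPM in the run of replicate 1 (horizontal) and of replicate 2 (vertical) for 445 tested miRNAs. The other 4 had a library with 0 reads. Shade gives the mean CPM, the dotted line marks equal ratios, and miR-128-1-5p, miR-27a-5p and miR-26a-2-3p lie far from 0 and near that line, while miRNAs under 10 CPM scatter in all directions.

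By sign and by rank the runs resembled each other more among the most abundant miRNAs than among the least. The sign of the change was the same in both runs for 268 of 449 miRNAs (59.7%), for 101 of 183 under 10 CPM (55.2%) and for 45 of 62 at 1000 CPM and over (72.6%). Across miRNAs, which share their libraries and are not replicates, Pearson's r between the runs' log2 ratios was 0.19 over all 449. It was 0.06 under 10 CPM, 0.55 from 10 to 100 CPM and 0.47 at 1000 CPM and over, with Spearman's rho of 0.08, 0.26 and 0.52. The runs share no library, so no reads are common to both ratios.

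The size of change that could be seen depended on abundance. The median half-width of the 95% interval of the fitted change was 0.88 on the log2 scale for miRNAs under 10 CPM, a 1.84-fold change. It was 0.48 (1.40-fold) from 10 to 100 CPM, 0.42 (1.34-fold) from 100 to 1000 CPM and 0.29 (1.22-fold) at 1000 CPM and over. By counting error alone at equal depth, 10 reads at 0 h needed 23 at 1 h, 100 needed 131 and 1000 needed 1091 to leave a ratio of 1. Among the 62 miRNAs at 1000 CPM and over the log2 changes lay between -0.20 and 0.22, and none passed the adjusted or the unadjusted threshold. Of the 15 miRNAs with a log2 change of at least 1 in size, 12 were under 10 CPM, and the others were miR-128-1-5p, miR-26a-2-3p and miR-27a-5p. miR-155-3p shows the limit, as an example chosen after its values were seen: it had 1 and 8 reads in replicate 1 and 2 and 1 in replicate 2.

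**Figure D5:**
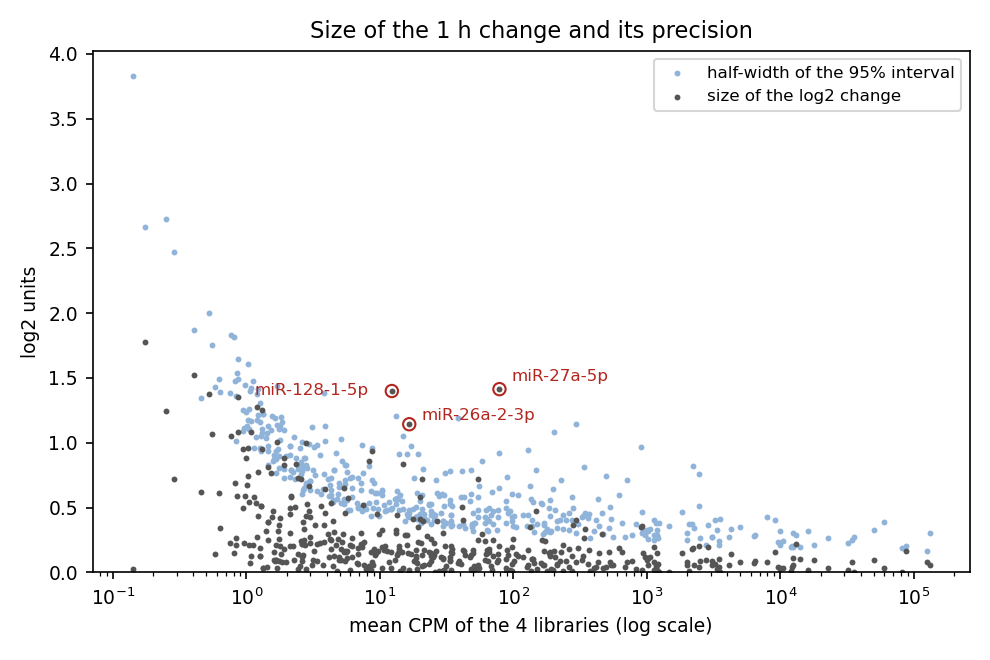
Size of the log2 change between 0 h and 1 h (dark points) and half-width of its 95% interval (blue points) for each tested miRNA, against mean CPM of the 4 libraries on a log scale. miR-128-1-5p, miR-27a-5p and miR-26a-2-3p stand above most half-widths at like abundance, and the size of change narrows toward high CPM.

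The most abundant miRNAs were nearly level. The 5 leading ones, miR-22-3p and miR-143-3p, then miR-99b-5p, then miR-27b-3p with miR-21a-5p, together held 50.3% to 51.5% of each library. miR-22-3p was at 135099 and 127234 CPM in replicate 1 and at 124564 and 118115 CPM in replicate 2. Its ratios of 0.942 and 0.948 left 1 by counting error in the same direction, yet its log2 change of -0.08 ± 0.08 (SE) was within the spread between replicates. miR-99b-5p, of a cluster with let-7e and miR-125a, was at 81724 and 90612 CPM in replicate 1 and at 83430 and 94568 CPM in replicate 2, with both 1 h libraries above both 0 h libraries. Its log2 change was 0.17 ± 0.09 (SE), with an edgeR adjusted p of 0.994. miR-27b-3p had a log2 change of 0.00 ± 0.09 and miR-21a-5p, a growth-factor-induced miRNA, of -0.04 ± 0.18.

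Lists of miRNAs tied to growth are given beside all tested miRNAs, of which 0.445% were called (1.11% with the block), with a median log2 change of -0.01. At that share, lists of this size would hold hardly any call, so a count of 0 says nothing particular about their members. Of 18 growth-factor-induced miRNAs tested, 0 were called and the median log2 change was 0.08. miR-155-5p, which immune and growth signals induce, was at 76.1 and 68.7 CPM in replicate 1 and at 83.2 and 80.7 CPM in replicate 2. In each replicate it was lower at 1 h than at 0 h. It was not among the miRNAs whose counting intervals left a ratio of 1 in both runs. Of 9 miRNAs linked to SRF, the serum response factor, none was called (median 0.06). Of 11 miRNAs of the miR-23, miR-27 and miR-24 clusters none was called without the block and miR-27a-5p with it (median 0.14).

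Families that restrain or accompany the cell cycle are read against the same share, and against 3.34% at an unadjusted p under 0.05. None of 16 members of miR-17-92 and its paralogs (median -0.11), 11 of the miR-322 and miR-503 cluster (-0.19), 10 of the miR-15/16 family (-0.04), 20 of the let-7 family (0.00), 12 of the miR-30 family (-0.03) or 7 of the miR-34 and miR-449 family (-0.06) was called in either direction. At an unadjusted p under 0.05 these families held 2 let-7 members and 1 member of the miR-34 and miR-449 family, all higher, a share near that of all tested miRNAs. miR-322-5p, which targets cell-cycle genes, was at 2706 and 2370 CPM in replicate 1 and at 2002 and 1754 CPM in replicate 2. It was lower at 1 h within each run, by less than the runs differed from each other. The miR-29 family, known for repressing collagens, had 5 tested members, none called (median -0.29); miR-29b-3p was at 53.7 and 48.8 CPM and at 74.6 and 56.0 CPM. In the miR-26 family 1 of 5 was called lower, miR-26a-2-3p (median -0.09), and in the miR-128 family 1 of 2 was called higher, miR-128-1-5p. The lists were chosen with earlier results of these data known, so these shares only restate the calls of those miRNAs.

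Set within the course, few miRNAs had their highest or lowest levels at 1 h. They were fewer than at 0 h or 12 h and more than at each time from 2 h to 10 h. Both 1 h libraries lay above all other 14 libraries for 8 of 449 miRNAs (1.78%) and below them for 6 (1.34%). The same counts were 14 and 12 for 0 h, 4 and 4 for 2 h, 5 and 4 for 4 h, 2 and 2 for 6 h, 2 and 0 for 8 h, 3 and 1 for 10 h, and 9 and 9 for 12 h. Among the 449 tested miRNAs, 131 were minor arms and 125 major arms of hairpins with enough reads of both arms. Of the 8 with their highest levels at 1 h, 6 were minor arms, among them miR-128-1-5p, miR-1843a-3p and miR-23a-5p. miR-130a-5p was another, named here after its values were seen, at 4.76 and 8.20 CPM in replicate 1 and at 7.17 and 14.8 CPM in replicate 2. miR-345-5p was one of the 2 major arms. miR-210-5p differed from these in timing: it was at 10.6 and 10.7 CPM at 1 h, and its highest library of the course reached 35.5 CPM. Those with their lowest levels at 1 h were the major arms miR-1964-3p, miR-212-5p, miR-467d-5p and miR-702-3p, the minor arm miR-193a-5p, and miR-127-3p.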

How the data were processed

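The table the authors deposited gives a raw count of reads for each miRNA and class of sequence in every library, per the file headers (6511 entries, of which 1 duplicate was dropped). Per the submitters' processing notes CASAVA 1.8.0 was used. No source used here gives the aligner, the miRNA reference or the handling of reads with several matches. An Illumina TruSeq small RNA kit was used on 1000 ng of total RNA, per the labels' protocols. Reference-length, trimmed, 3′ extended and 5′ extended counts were summed for each mature miRNA. Class meanings were read from their names. Reads carry no molecular identifiers, so intervals and floors cover counting error only.

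The 16 libraries entered 1 edgeR fit (4.0.16, R 4.3.3) with time as a factor, TMM scaling, the quasi-likelihood test, and p-values adjusted by Benjamini-Hochberg over the 449 miRNAs kept by filterByExpr (minimum count 10). The SE is the size of the log2 change over the square root of F, and p-values measure the spread between 2 libraries a time. Arm and end-form ratios, with 0.5 reads added, were tested with limma 3.58.1. Counting intervals are exact (Clopper-Pearson, 95%). CPM uses TMM-scaled totals. Other settings tried were DESeq2 (1.42.0), voom, other scalings, filters, prior counts and read classes, a 99% interval, the run as a block, and each library left out.

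Same-numbered libraries deviated together: over 266 miRNAs and all 28 pairs of times, the correlation of replicate differences was 0.208 to 0.8 (0.584 between 0 h and 1 h). Each number is 1 sequencing run, per the file headers, so the numbers pair the libraries, and the block is given where it changes a call. Named miRNAs are those called in either fit, the 8 largest rises and falls at an unadjusted p under 0.05, their other arms, the 5 most abundant, the 3 most abundant of each list, and the 3 smallest p of each ratio test. The members, lists and rules were chosen with earlier results of these data known. RefSeq sequences matched 988 of 1167 miRNAs. The fits were tested on simulated data.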

Additional observations from a re-analysis of the deposited data

How the results depend on the processing

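The number of called miRNAs (2) was 0 when only miRNAs averaging 10 CPM or more were tested, 5 with the replicate block and 1 with reference-length reads only, and 0 to 3 when 1 library was left out. The number called higher (1) was 2 with no low-count filter, with DESeq2's test and with the 0 h and 1 h libraries alone, 4 with the replicate block, 0 for those averaging 10 CPM or more or with reference-length reads only, and 0 to 2 with 1 library left out. The number called lower (1) was 0 for those averaging 10 CPM or more and 0 to 1 with 1 library left out. Hairpins called by arm ratio (0) numbered 3 with the replicate block, and miRNAs called by end form (1) numbered 2 with it and 0 to 1 with 1 library left out. The average of 10 CPM, taken here over all 16 libraries rather than the 4 of 0 h and 1 h, left out both called miRNAs. The cause of the other shifts was not tested, except that leaving out a 0 h or 1 h library leaves a lone sample, assumed to vary like the other groups. The 68 miRNAs beyond counting error in both runs were 68 with unscaled totals and 52 with 99% intervals.

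Changes near 0 turned sign in some settings, none of them called. let-7f-5p was at -0.0088 with total counts, -0.0017 with voom and -0.053 with reference-length reads; miR-27b-3p at 0.0085 with no filter, 0.012 at an average of 10 CPM or more and 0.013 with 4 libraries. With reference-length reads miR-194-5p was at -0.043, miR-210-3p at -0.048, miR-9-5p at -0.21 and miR-93-5p at 0.047.
With 1 library left out, the ranges of those that turned sign were let-7a-5p -0.12 to 0.098, let-7f-5p -0.10 to 0.14, miR-143-3p -0.0094 to 0.16, miR-16-5p -0.038 to 0.0049, miR-1843a-5p -0.050 to 0.14, miR-192-5p -0.039 to 0.0043, miR-194-5p -0.016 to 0.097, miR-205-5p -0.27 to 0.061, miR-210-3p -0.17 to 0.29, miR-215-5p -0.66 to 0.26, miR-21a-5p -0.073 to 0.047, miR-22-3p -0.14 to 0.015. The next were miR-23a-3p -0.031 to 0.038, miR-26a-5p -0.18 to 0.033, miR-26b-3p -0.23 to 0.39, miR-26b-5p -0.14 to 0.0043, miR-27a-3p -0.087 to 0.014, miR-27b-3p -0.0084 to 0.043, miR-29a-3p -0.15 to 0.10, miR-29c-3p -0.31 to 0.0038, miR-30a-5p -0.070 to 0.024, miR-30d-5p -0.12 to 0.10, miR-30e-5p -0.55 to 0.11, miR-31-5p -0.068 to 0.17. The last were miR-322-3p -0.41 to 0.11, miR-322-5p -0.40 to 0.080, miR-345-3p -0.073 to 0.79, miR-34c-5p -0.20 to 0.11, miR-351-5p -0.30 to 0.030, miR-451a -0.92 to 0.45, miR-467d-3p -0.33 to 0.16, miR-744-3p -0.091 to 0.088, miR-92a-1-5p -0.50 to 0.095, miR-92a-3p -0.010 to 0.12.
No scaling moved the median change of all miRNAs by more than 0.05. Depth limits miRNAs under 10 CPM most.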

Other observations

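Some further differences within the first hour, named after their values were seen, rested on arms or forms of single hairpins. For Mir34b the minor arm, miR-34b-5p, made up 47.8% of both arms at 0 h and 22.6% at 1 h in replicate 1, and 43.5% and 27.4% in replicate 2, from 12 to 53 reads an arm and library (limma adjusted p of the arm ratio 0.360). For miR-185 the minor arm, miR-185-3p, took 10.8% and 17.9% in replicate 1 and 8.77% and 16.4% in replicate 2 (limma adjusted p = 0.498), while the major arm miR-185-5p was the one with lower counts. miR-125b-1-3p, the minor arm of a hairpin whose miR-125b-5p is abundant in fibroblasts, had 6180 and 7489 reads in replicate 1 and 5416 and 7110 in replicate 2, with a log2 change of 0.36 ± 0.14 (SE) and an edgeR adjusted p of 0.994. Its share of reads outside the reference length was 27.7% and 23.1% in replicate 1 and 27.9% and 22.8% in replicate 2. None of these differences passed adjustment.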
